A study of Rattus norvegicus with 16 samples.

Results

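The genes described here are 9 protein-coding genes of the rat mitochondrial genome: ND1, ND2, ND4 and ND5 of complex I, CYTB of complex III, COX1, COX2 and COX3 of complex IV, and ATP6 of complex V. They were taken by symbol from a deposited table of read counts, where mitochondrially encoded genes are written in capitals. All 9 were found among its 33294 genes, and all 9 were among the 17856 genes that passed a filter on low counts. They were chosen by where they are encoded, with no threshold on a measured value, although earlier results of these data were known. The table also held ND3, ND4L, ND6 and ATP8, which complete the 13 mitochondrially encoded protein genes and are given beside the 9 where the comparison needs them.

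Mitochondria carry a small circular genome that encodes core subunits of the respiratory chain, while most subunits come from nuclear genes. Each strand is transcribed as a long precursor that is cut into separate RNAs, most of which gain a poly(A) tail, so the genes share a promoter region and can differ afterwards in processing and decay. In brain these RNAs are abundant, since neurons meet much of their energy demand by oxidative phosphorylation.

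The study asked what exposure to fentanyl, a synthetic opioid, around birth leaves behind in the adult brain. Each library came from tissue labelled central amygdala, a region involved in fear, stress and drug seeking, of 1 adult rat. Every animal in both exposure groups was taken 1 day after its last IVSA session (the abbreviation is the submitters'), so the saline animals went through those sessions too. The 4 groups were fentanyl males (n = 6), saline males (n = 6), fentanyl females (n = 2) and saline females (n = 2). The labels give no strain, dose, age in days, litter or dam, so animals of 1 group may be littermates, and p-values measure only the spread between these samples. In bulk tissue, fewer cells of a type and less RNA per cell cannot be told apart.

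Total counts ran from 12879701 to 22426428 per library. Pan-neuronal markers were found in every library, with 12 markers summing to 5553 to 7023 CPM (counts per 1000000 after TMM scaling of library totals). The 11 central amygdala neuron markers, none of them at 0 throughout, summed to 265.5 to 858.4 CPM. In the same libraries 12 striatal spiny neuron markers summed to 2850 to 14684 CPM, so these sums do not establish which region was sampled. The labels number the fentanyl males 1 to 6, and the saline males 1, 2 and 9 to 12. The saline males numbered 1 and 2 stood apart from those numbered 9 to 12 at an adjusted p under 0.05 (edgeR's quasi-likelihood test, Benjamini-Hochberg over all genes). In them 11 of 12 striatal spiny neuron markers were higher, against 8.27% of all genes, and 10 of 12 myelin markers were lower, against 9.66%. Among fentanyl males, replicate 2 stood apart in the mitochondrial counts themselves, and the main exposure results below are given with and without it.

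The 9 genes together took 8.11% to 12.3% of all counts in 15 of the libraries and 16.9% in fentanyl male replicate 2. Across the 6 fentanyl males the lowest, median and highest shares were 8.55%, 9.16% and 16.9%. The 6 saline males gave 8.11%, 10.3% and 11.3%. The shares were 10.6% and 9.82% in the 2 fentanyl females, and 12.3% and 8.64% in the 2 saline females. The groups overlapped, and the 2 saline females were further apart than the group means. The means were 10.4% ± 2.73 over fentanyl libraries and 10.2% ± 1.40 over saline libraries (SD, n = 8 each). Without fentanyl male replicate 2 the fentanyl mean was 9.42% ± 0.689 (SD, n = 7), which turned a difference of 0.117 percentage points into one of -0.825. Counting error was small beside this spread, since the widest 95% Wilson interval of a share spanned 0.0374 percentage points. Intervals cover counting error only, and shares of counts are not corrected for gene length.

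**Figure D1:**
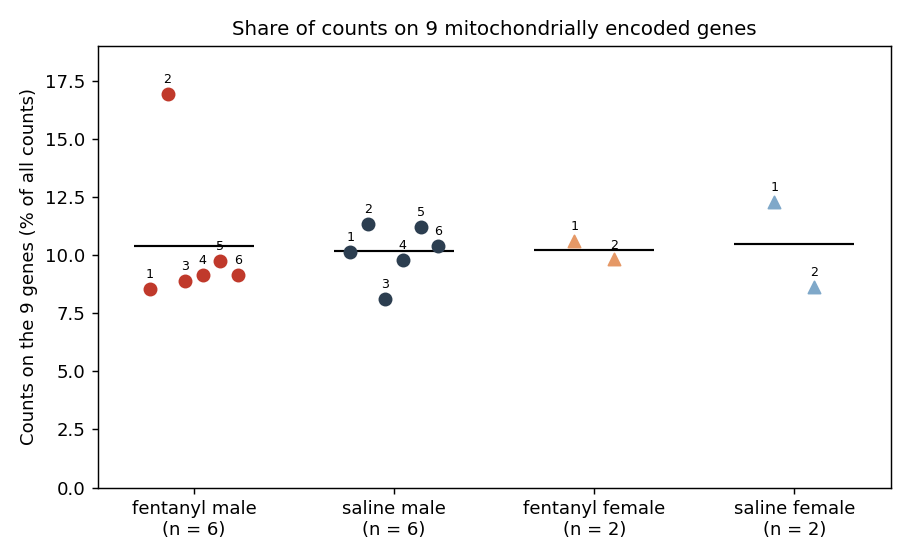
Share of all counts on the 9 genes (vertical axis, percent) in each of 16 libraries by group; points are libraries marked with their replicate number, and horizontal lines are group means. Fentanyl male replicate 2 lies at 16.9%, and the other 15 libraries lie between 8.11% and 12.3%.

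Complex I is the entry point of electrons from NADH, and ND1, ND2, ND4 and ND5 belong to its membrane arm. ND1, near the quinone site, had lowest, median and highest levels of 6902, 7145 and 15983 CPM in fentanyl males and 6045, 8603 and 10647 CPM in saline males, with 9015 and 9022 CPM in fentanyl females and 10219 and 7517 CPM in saline females. ND2, a subunit with a proton channel, had 6791, 7074 and 15994 CPM in fentanyl males and 5558, 7197 and 8956 CPM in saline males, with 8982 and 8287 CPM in fentanyl females and 9296 and 6597 CPM in saline females. For both genes the highest library was fentanyl male replicate 2, and the other fentanyl libraries lay inside the saline range.

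ND4, another proton-channel subunit, had 7571, 8054 and 16478 CPM in fentanyl males and 7059, 9666 and 12147 CPM in saline males, with 10079 and 9625 CPM in fentanyl females and 11421 and 8132 CPM in saline females. ND5, the subunit at the far end of the arm, had 3679, 3851 and 6690 CPM in fentanyl males and 3556, 4725 and 5605 CPM in saline males, with 4492 and 3178 CPM in fentanyl females and 4849 and 4243 CPM in saline females. The lowest ND5 level of all 16 libraries was in fentanyl female replicate 2, although that library's levels of the other 8 genes were inside the saline range.

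CYTB encodes cytochrome b, the mitochondrially encoded subunit of complex III. It had 8203, 8551 and 16691 CPM in fentanyl males and 7390, 9682 and 12127 CPM in saline males, with 9803 and 9865 CPM in fentanyl females and 10878 and 7834 CPM in saline females. Apart from fentanyl male replicate 2, every fentanyl library again lay inside the saline range.

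COX1, COX2 and COX3 form the core of complex IV, which passes electrons to oxygen; COX1 holds the site where oxygen is reduced and COX2 receives electrons from cytochrome c. COX1 had 24540, 26641 and 52133 CPM in fentanyl males and 21333, 27729 and 33832 CPM in saline males, with 31036 and 28271 CPM in fentanyl females and 32632 and 24146 CPM in saline females. COX2 had 7958, 8442 and 17776 CPM in fentanyl males and 7190, 9715 and 10972 CPM in saline males, with 9726 and 9706 CPM in fentanyl females and 12078 and 8397 CPM in saline females. COX3 had 9999, 11075 and 23211 CPM in fentanyl males and 9587, 11994 and 13174 CPM in saline males, with 13256 and 12734 CPM in fentanyl females and 15206 and 9778 CPM in saline females. The highest saline male for COX1, replicate 5, was the lowest of all 16 libraries for COX3.

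ATP6 encodes subunit a of ATP synthase, through which protons flow back. It had 8970, 9511 and 22946 CPM in fentanyl males and 8365, 11169 and 12858 CPM in saline males, with 11901 and 11143 CPM in fentanyl females and 14029 and 8689 CPM in saline females. Fentanyl male replicate 2 exceeded the saline mean between 1.45-fold (ND5) and 2.15-fold (ND2) over the 9 genes, with ATP6 at 2.05-fold.

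**Figure D2:**
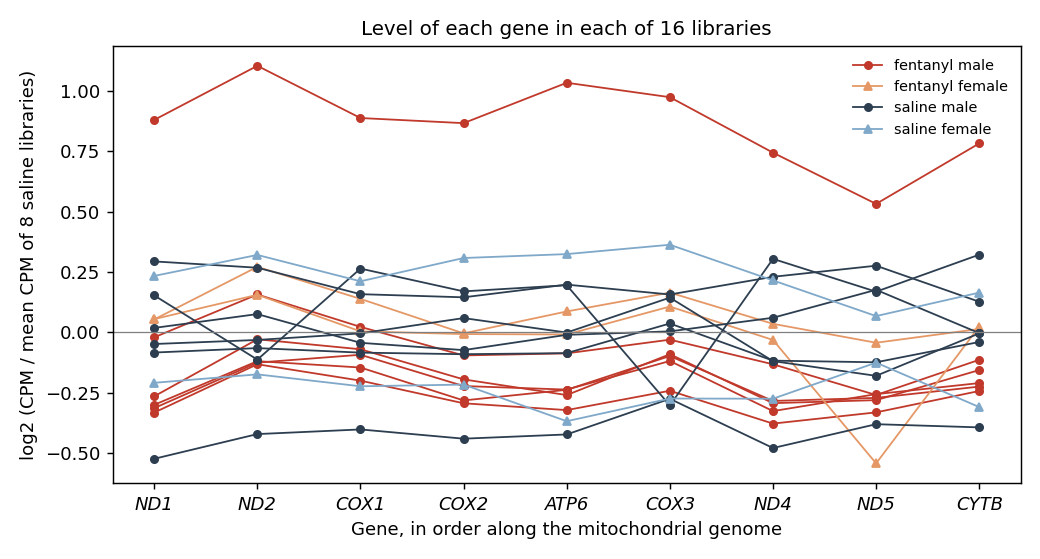
Level of each of the 9 genes in each of 16 libraries as log2 of its CPM over the mean CPM of the 8 saline libraries (vertical axis), with genes in order along the mitochondrial genome; lines join the genes of 1 library. Fentanyl male replicate 2 runs above all other libraries at every gene, saline male replicate 5 falls at ND2 and COX3, and fentanyl female replicate 2 falls at ND5.

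The 9 genes varied together from library to library. Across the 36 pairs of the 9 genes, Pearson's r of log2 CPM over the 16 libraries ran from 0.608 to 0.987 (median 0.923), and from 0.264 to 0.966 (median 0.783) without fentanyl male replicate 2. In both sets the pair with the lowest r was COX3 and ND5. These values describe libraries that share a scaling and are not a test. Set against the counts of the 13 mitochondrially encoded genes, each gene varied less. For COX1 the SD over the 16 libraries was 0.29 for log2 CPM and 0.05 for the log2 of its share. The gap was narrowest for ND5, at 0.28 and 0.18, followed by COX3, at 0.31 and 0.14. Without fentanyl male replicate 2 the SDs of log2 CPM fell, to 0.18 for COX1, 0.23 for ND5 and 0.20 for COX3, while those of the shares were 0.05, 0.17 and 0.15.

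With the groups compared directly, fentanyl and saline libraries did not differ detectably in any of the 9 genes. By edgeR's quasi-likelihood test over both sexes, with sex as a term, 0 of 9 genes passed an adjusted p of 0.05 and 0 had an unadjusted p under 0.05, against 0.0784% of all genes tested that were called (14 genes). DESeq2 called 0 of 9, with 0 at an unadjusted p under 0.05, against a background of 0.487%. limma voom with quality weights called 0 of 9, with 1 at an unadjusted p under 0.05 (ND5, adjusted p = 0.158), against a background of 5.77%. No gene of the 9 had 8 fentanyl libraries clear of 8 saline libraries in CPM, as 0.101% of all genes did.

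ND2 had the largest difference of the 9, a log2 fold change of 0.22 ± 0.18 (SE), with 8665 ± 3074 CPM in fentanyl and 7441 ± 1231 CPM in saline libraries (SD, n = 8 each), and an edgeR adjusted p of 0.820. ND5 had the lowest, -0.15 ± 0.15 (SE), with 4178 ± 1076 against 4627 ± 700.2 CPM and an edgeR adjusted p of 0.835. COX1 stood at 0.11 ± 0.16, with a 95% interval of -0.21 to 0.43. The intervals of all 9 genes spanned 0, so differences of that order were not detectable here. Over the 9 genes 7 values were above 0 and 2 below, with a median of 0.03 beside -0.01 over all genes tested. With library totals in place of TMM factors COX2, CYTB and ND1 turned below 0.

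These directions rested on fentanyl male replicate 2. Without it, 8 of the 9 genes were below 0 and 1 (ND2, 0.03) was above, with a median log2 fold change of -0.15. ND5 then stood at -0.27 ± 0.11 (SE), with an unadjusted p of 0.0267 and an edgeR adjusted p of 0.576, and ND4 at -0.19 ± 0.12. The edgeR calls stayed at 0 of 9 (1 at an unadjusted p under 0.05), against 0.0616% of all genes. Without that library DESeq2 also called 0 of 9 (1 at an unadjusted p under 0.05), against 0.476%. There limma voom called 0 of 9 (3 at an unadjusted p under 0.05, lowest adjusted p = 0.1064), against 6.52%.

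**Figure D3:**
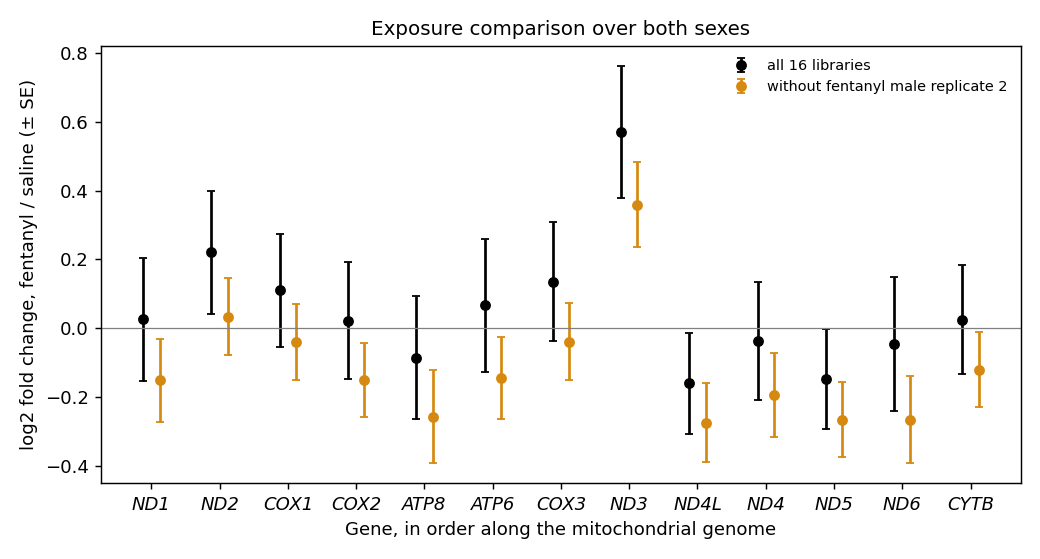
Log2 fold change of fentanyl over saline across both sexes (vertical axis, with its standard error as bars) for 13 mitochondrially encoded genes, with all 16 libraries (black) and without fentanyl male replicate 2 (orange). ND3 lies highest at 0.57 with all libraries and 0.36 without that library, and leaving it out moves every gene down.

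Fentanyl male replicate 2 also differed in other marker lists, whose part in its mitochondrial share was not tested. Its 11 endothelial and mural cell markers summed to 453.8 CPM against 172.0 to 303.3 CPM in the other 15 libraries, and its 8 meningeal and fibroblast markers to 55.2 against 19.9 to 42.5 CPM. Its sums were also the highest for 12 myelin markers (35172 against 7457 to 33803 CPM) and 8 oligodendrocyte precursor markers (1311 against 422.3 to 1195 CPM), and the lowest for 10 GABAergic interneuron markers (1113 against 1175 to 1487 CPM). Its pan-neuronal sum, 6758 CPM, was inside the range of the others.

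Nuclear genes of oxidative phosphorylation were high in the same library. The summed level of complex I subunits was 4550 CPM in it against 2744 to 3710 CPM in the other 15, and that of complex III subunits 1543 against 1008 to 1277 CPM. The complex IV list, with cytochrome c, summed to 3962 against 2028 to 2821 CPM, and complex V subunits to 4919 against 3359 to 4141 CPM. The mitochondrial ribosome and translation list (1057 against 851.2 to 995.2 CPM) and the assembly factors (1428 against 1171 to 1319 CPM) were also above the others. The lists of mitochondrial transcription, RNA processing and biogenesis were inside the range of the others.

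Within each sex the 9 genes gave no call either. In males, 0 of 9 genes were called by edgeR (0 at an unadjusted p under 0.05), against 0.0392% of all genes. DESeq2 and limma voom called 0 of 9 as well, against 0.241% and 0.487% of all genes. The male values ran from -0.12 (ND5) to 0.25 (ND2), with a median of 0.05 beside -0.01 over all genes. Without fentanyl male replicate 2 all 9 male values were below 0, with a median of -0.20 and the lowest at ND5 (-0.28), and edgeR called 0 of 9, against 0.0336% of all genes. DESeq2 and limma voom then called 0 of 9 as well, each with 2 at an unadjusted p under 0.05, against 0.23% and 0.426% of all genes. In females, where 2 libraries stood against 2, 0 of 9 were called (0 at an unadjusted p under 0.05), and the background was 0% as well. DESeq2 and limma voom also called 0 of 9 in females, against 0.112% and 0% of all genes. The female values ran from -0.25 (ND5) to 0.12 (ND2), with standard errors of 0.30 to 0.40.

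The exposure difference was not shown to depend on sex. The female minus male difference had a median of -0.06 over the 9 genes, with 0 of 9 called by edgeR, DESeq2 or limma voom and 0 at an unadjusted p under 0.05 by each. The background was 0% by edgeR, 0.0224% by DESeq2 and 0% by limma voom. Females against males gave 0 of 9 calls by the same 3 tools, with 0, 0 and 1 genes at an unadjusted p under 0.05, against 0.056%, 0.0672% and 0.084% of all genes. The median difference of females from males was 0.02.

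The 9 genes also gave no call between the 2 number sets of saline males, where 17.9% of all genes were called (8.27% higher and 9.66% lower in numbers 1 and 2). All 9 were higher in numbers 1 and 2 than in 9 to 12 by value, from 0.07 (CYTB) to 0.34 (ND5) with a median of 0.17, and edgeR called 0 of 9 (0 at an unadjusted p under 0.05). DESeq2 called 0 of 9 (0 at an unadjusted p under 0.05) against 21.4% of all genes, and limma voom 0 of 9 (1 at an unadjusted p under 0.05, lowest adjusted p = 0.106) against 32.1%. The summed share was 10.2% and 11.3% in numbers 1 and 2, and 8.11% to 11.2% in numbers 9 to 12.

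A second view set each gene against the counts of the 13 mitochondrially encoded genes, which removes the level that the genes share. This measure, and the tests of it, were chosen after the data had been seen. By an edgeR fit over all genes with library sizes set to the mitochondrial total, which was run first, 0 of the 9 genes passed (lowest adjusted p of 1, 0 at an unadjusted p under 0.05), against 0.0616% of all genes. That fit gave standard errors of 0.14 to 0.15 for the 9 genes, wider than the spread of most shares. The share of each of the 13 genes was then compared by a two-sided exact permutation test of the log2 share over samples, 8 against 8, which cannot go below 1.554e-04. Those 13 p-values are not adjusted for the number of tests, and shares of 1 total cannot move independently.

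Within complex I the shares went in different directions. ND2 took 7.79% ± 0.286 of mitochondrial counts in fentanyl and 7.07% ± 0.539 in saline libraries (SD, n = 8 each), a log2 difference of 0.14 ± 0.05 (SE; exact permutation p = 0.001865). All 8 fentanyl libraries were above the saline median, though the groups overlapped. The male libraries ran from 7.36% to 8.16% with fentanyl and from 5.85% to 7.43% with saline (exact permutation p = 0.008658), and the females stood at 7.96% and 7.81% against 7.41% and 7.45%. The lowest value was that of saline male replicate 5. The log2 difference was 0.10 without it, and 0.13 without fentanyl male replicate 2 (exact permutation p = 0.00373).

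ND4 and ND5 had lower mean shares with fentanyl. ND4 took 8.69% ± 0.237 against 9.31% ± 0.538 (SD, n = 8 each), a log2 difference of -0.10 ± 0.03 (SE; exact permutation p = 0.006838). ND5 took 3.84% ± 0.431 against 4.41% ± 0.396 (SD, n = 8 each), a difference of -0.20 ± 0.08 (SE; exact permutation p = 0.01523). For both genes the fentanyl and saline ranges overlapped, and for both no fentanyl library was above the saline median. As ratios to CYTB instead, the exact permutation p was 0.0984 for ND4 and 0.0525 for ND5, and as ratios to ATP6 it was 0.0942 and 0.0842. Without fentanyl male replicate 2 the differences in share were -0.09 for ND4 (exact permutation p = 0.0137) and -0.18 for ND5 (exact permutation p = 0.0305). With any 1 library left out the difference was smallest for ND4 without saline male replicate 5 (-0.08), and for ND5 without fentanyl female replicate 2 (-0.15). ND1 differed by -0.05 ± 0.03 (exact permutation p = 0.164).

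The complex IV shares moved little. COX1 took 27.7% ± 0.726 with fentanyl and 26.8% ± 0.930 with saline (SD, n = 8 each; exact permutation p = 0.0518, and 0.0292 without fentanyl male replicate 2). With any 1 library left out its log2 difference ran from 0.04 to 0.06, the highest without saline male replicate 5. The exact permutation p then ran from 0.0056 to 0.0948. COX2 took 8.95% ± 0.181 against 9.25% ± 0.328 (SD, n = 8 each; exact permutation p = 0.0385), and its p was 0.735 as a ratio to CYTB and 0.441 as a ratio to ATP6. COX3 differed by 0.07 ± 0.07 on the log2 scale (exact permutation p = 0.498), a value that came from saline male replicate 5 and was 6.0e-05 without it. CYTB differed by -0.03 ± 0.03 (exact permutation p = 0.323) and ATP6 by -0.02 ± 0.03 (exact permutation p = 0.574).

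Saline male replicate 5 and fentanyl female replicate 2 departed from the others in several genes. In saline male replicate 5, COX3 made up 8.15% of mitochondrial counts against 10.9% to 12.4% in the other 15 libraries, and ND2 made up 5.85% against 6.93% to 8.16%. The same library was the highest of all 16 for COX1 (28.7% against 25.9% to 28.5%), CYTB (10.3% against 8.51% to 9.41%) and ND4 (10.32% against 8.41% to 9.72%). In fentanyl female replicate 2, ND5 made up 2.995% against 3.41% to 4.95% in the other 15, and ND4L made up 0.5005% against 0.605% to 0.897%. That library was the highest of all 16 for ND6 (1.58% against 1.18% to 1.53%) and ND3 (1.417% against 0.863% to 1.415%). Shares of 1 total move against each other, and ND4L overlaps ND4 on the genome.

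Of the 4 other mitochondrially encoded genes, ND3 had the clearest separation. ND3, a small complex I subunit, took 1.21% to 1.42% of mitochondrial counts in the fentanyl males and 0.872% to 0.979% in the saline males, with 1.30% and 1.42% in the fentanyl females and 1.03% and 0.863% in the saline females. The 8 fentanyl libraries lay above all 8 saline libraries, and 0 of the 9 genes separated in this way. Over all genes 0.0672% separated in either direction per mitochondrial count. That background is mostly nuclear genes, which carry the swing of the mitochondrial total that cancels for ND3, so it is not a like one. By level ND3 overlapped between the exposures, with a lowest fentanyl value of 1064 CPM and a highest saline value of 1288 CPM. Its log2 difference in share was 0.49 ± 0.05 (SE; exact permutation p = 1.554e-04, the smallest possible), with 0.48 in males (exact permutation p = 0.002165, the smallest possible for 6 against 6) and 0.53 in females. In saline males it was 0.905% and 0.979% in numbers 1 and 2 and 0.872% to 0.918% in numbers 9 to 12, so both sets were below every fentanyl library. Without fentanyl male replicate 2 the log2 difference was 0.47.

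Cell type markers also differed in value between the exposures, and their part in the ND3 difference was not tested. All 12 striatal spiny neuron markers were above 0 with fentanyl over both sexes (median log2 fold change 0.54, 0 called by edgeR, 6 at an unadjusted p under 0.05), with a median of 0.37 in males and 0.88 in females. Of 12 myelin markers 11 were below 0 over both sexes (median -0.22, 0 called by edgeR, 0 at an unadjusted p under 0.05). In females all 12 myelin markers were below 0, with a median of -1.01, and in males 10 of 12 were above 0, with a median of 0.06. All 11 microglia markers (median -0.23) and all 11 astrocyte markers (median -0.15) were below 0 over both sexes. The microglia median was -0.09 in males and -0.57 in females, and the astrocyte median -0.04 and -0.44. Of 8 meningeal and fibroblast markers 7 were above 0 over both sexes (median 0.26). In males 8 of 8 were above 0 (median 0.44), and in females 7 of 8 were below 0 (median -0.38). Of 11 central amygdala neuron markers 10 were below 0 in males (median -0.34) and 10 were above 0 in females (median 0.99). None of these was called by edgeR, against 0.0784% of all genes over both sexes, 0.0392% in males and 0% in females. Over both sexes 1298 of all 17856 genes had an unadjusted edgeR p under 0.05.

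The level of ND3 did not pass edgeR's test over all genes. It stood at 1442 ± 561 CPM with fentanyl and 970.8 ± 198 CPM with saline (SD, n = 8 each), and its log2 fold change was 0.57 ± 0.19 (SE) with an edgeR adjusted p of 0.500. Scaled to the mitochondrial total its edgeR adjusted p was 0.481. By limma voom its adjusted p was 0.0532 with all libraries, where 5.77% of all genes were called. Without fentanyl male replicate 2 limma voom gave 0.0338 and called 6.52% of all genes, while edgeR gave 0.474 and called 0.0616%. ND6 likewise passed by limma voom alone without that library (log2 fold change -0.33, adjusted p = 0.0372; edgeR 0.614). ATP8, ND4L and ND6 had log2 fold changes of -0.09, -0.16 and -0.05 by level, and of -0.16, -0.21 and -0.14 by share (exact permutation p = 0.123, 0.0353 and 0.0359). ATP8 overlaps ATP6 and ND4L overlaps ND4 on the genome, and the counting settings are not given, so the split of reads within those pairs is uncertain, as it is for nuclear copies of mitochondrial sequence.

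**Figure D4:**
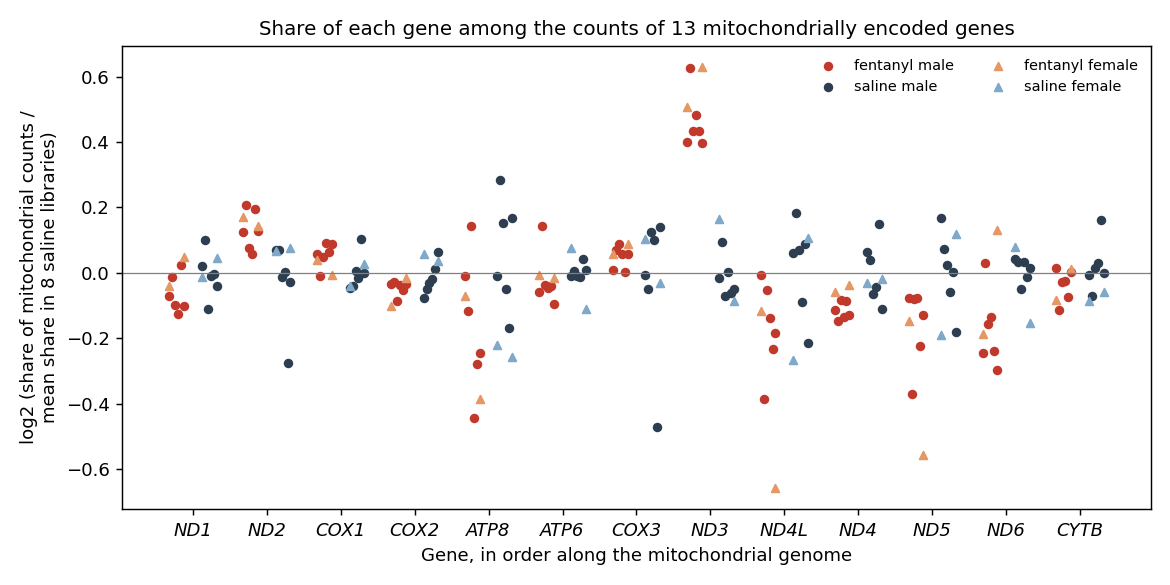
Share of each gene among the counts of 13 mitochondrially encoded genes, as log2 of the share over its mean in the 8 saline libraries (vertical axis); each point is a library, with fentanyl to the left and saline to the right of each gene. At ND3 the 8 fentanyl libraries (1.21% to 1.42%) lie above the 8 saline libraries (0.863% to 1.03%), and at the other 12 genes the exposures overlap.

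Nuclear genes that make, process and complete the mitochondrial products gave no call between exposures. Of 217 tested genes in 9 lists, edgeR called 0 over both sexes, against 0.0784% of all genes. The unadjusted edgeR p was under 0.05 for 6 of them, as it was for 1298 of all 17856 genes. Their lowest edgeR adjusted p was 0.591 and their median log2 fold change 0.03. The 75 nuclear-encoded subunits of complexes I, III, IV and V, with cytochrome c, had 59 values above 0 and a median of 0.05, beside a median of 0.03 for the 9 mitochondrially encoded genes and -0.01 for all genes. These directions too rested on fentanyl male replicate 2, since without it 25 of the 75 subunits were above 0 and 50 below, with a median of -0.03. Without that library edgeR called 0 of the 217 genes (5 at an unadjusted p under 0.05), against 0.0616% of all genes. In males 67 of the 75 were above 0 with all libraries and 23 without that library, and in females 26 were above 0 and 49 below. Ndufs5, a complex I subunit, had the smallest p among those subunits (57.9 ± 11.6 against 44.2 ± 14.03 CPM, SD, n = 8 each; log2 fold change 0.42 ± 0.16, edgeR adjusted p = 0.603). In the number sets of saline males 13 of 14 nuclear-encoded genes of the complex IV list had values below 0, as did 9142 of all 17856 genes. The 9 mitochondrially encoded genes were all above 0 there, with 0 called by edgeR, against 17.9% of all genes. The other nuclear lists are not given for this comparison, so this list alone does not show the direction of the nuclear-encoded subunits as a whole.

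The machinery of mitochondrial gene expression stayed near 0. The 20 genes of mitochondrial transcription and genome maintenance had a median of 0.02, with Twnk, the replicative helicase, at 0.26 ± 0.13 (SE, edgeR adjusted p = 0.704). The 26 genes of mitochondrial RNA processing and decay had 13 values on each side of 0, with Ptcd1 at -0.17 ± 0.08 (edgeR adjusted p = 0.676). The 31 genes of the mitochondrial ribosome and translation had a median of 0.04, and Gfm2, a factor of ribosome recycling, stood at 0.14 ± 0.06 (edgeR adjusted p = 0.636). Among 38 assembly factors Foxred1, which serves complex I, stood at 0.16 ± 0.07 (edgeR adjusted p = 0.662). Among 27 regulators of mitochondrial biogenesis and mass Prkaa1, a catalytic subunit of AMP-activated kinase, stood at -0.22 ± 0.08 (edgeR adjusted p = 0.591).

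**Figure D5:**
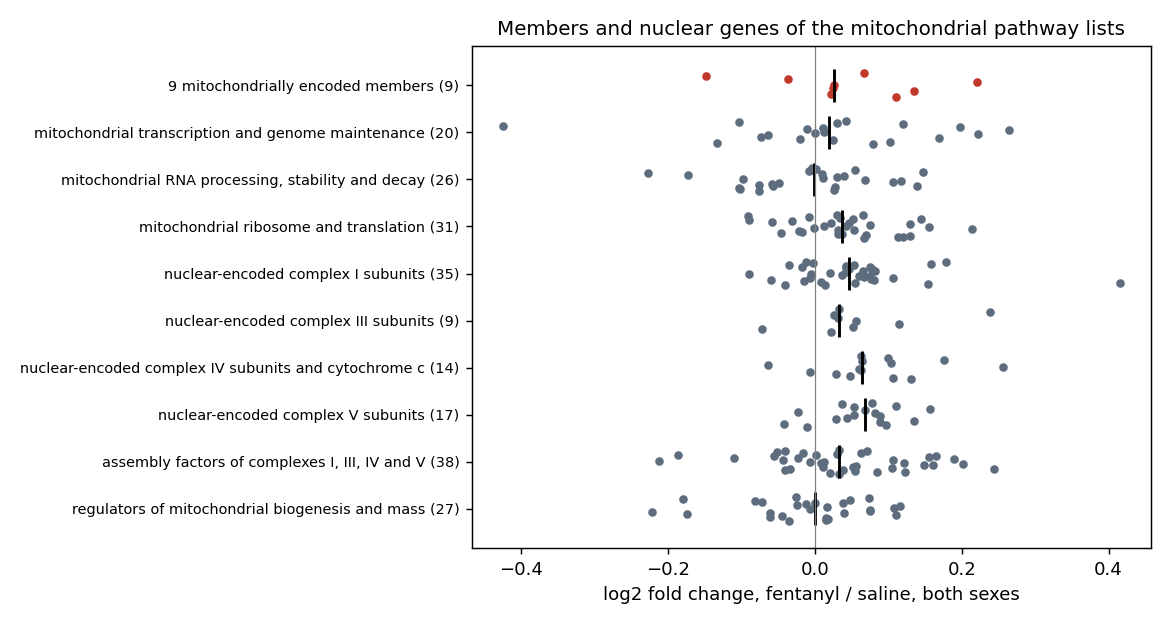
Log2 fold change of fentanyl over saline across both sexes (horizontal axis) for the 9 mitochondrially encoded genes (red) and the tested nuclear genes of 9 mitochondrial lists (grey); points are genes and vertical bars are medians, with the number of genes in brackets. The list medians lie close to 0, and the 9 genes have a median of 0.03.

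Of 10036 nuclear genes averaging 10 CPM or more, those most like the mean log2 CPM of the 9 genes over the 16 libraries were Atp5mg (r = 0.947), a subunit of ATP synthase, Churc1 (0.939), the complex I subunit Ndufs4 (0.936), Mcee (0.930), H2aj (0.930) and Rbm25 (0.929). The most opposite were Clstn3 (r = -0.946), Grk2 (-0.942), Snrk (-0.942), Kif3c (-0.939), Prdm11 (-0.937) and Mgat5 (-0.936). These values describe libraries that share depth and scaling. All 12 had their extreme level in fentanyl male replicate 2, such as Atp5mg at 304.8 CPM against 129.6 to 190.9 CPM elsewhere and Clstn3 at 85.98 CPM against 144.4 to 299.3 CPM. Without that library 4 of the 6 highest remained (Atp5mg, Churc1, H2aj and Mcee), as did 3 of the 6 lowest (Clstn3, Prdm11 and Snrk), with r of 0.851 for Atp5mg and -0.851 for Clstn3.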

How the data were processed

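Per the labels' protocols, Trizol RNA was selected for poly(A) and made into libraries with NEBNext kits. The deposited counts are whole reads per gene with no normalization. The submitters' processing notes name Trimmomatic, STAR, HTSeq, DESeq2 and the build rn7; tool versions, annotation and strand setting: not given in the sources used here. All 16 columns were matched to samples by library name, with 0 columns unused.

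Counts were fitted in R 4.3.3 with edgeR 4.0.16 (filterByExpr with the 4 groups, TMM, robust glmQLFit, glmQLFTest), and Benjamini-Hochberg adjustment covered all 17856 genes. DESeq2 1.42.0 and limma 3.58.1 were alternatives, and scripts were tested on simulated data. Contrasts within a sex came from a fit of the 4 groups, so the females shared the spread of the males. Log2 CPM used a prior count of 2, and standard errors are the fold change over the square root of F. No pair of libraries agreed within sampling noise (smallest chi-square per gene 3.88 over 120 pairs).

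The 9 genes, 10 pathway lists and 15 marker lists were chosen with earlier results of these data known. Named were the 9 genes, the other mitochondrially encoded genes, up to 2 genes per list with the smallest p, and the 6 genes per side most like the 9; not all are printed. Shares among mitochondrial counts were added after the data were seen: an edgeR fit scaled to the mitochondrial total was run first, and exact permutation tests (scipy 1.17.1) were chosen after its result was known. The ratios to ATP6 and CYTB were picked after seeing the shares.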

Additional observations from a re-analysis of the deposited data

Results flagged for a closer look

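In groups of 6 males, 54 sets of values were tested for a library whose gap to its nearest neighbour was too large for the group's range (Dixon's ratio above 0.625), and 20 values passed. Chance flags about 1 in 20 such groups, and values of 1 library are not independent of each other.

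Fentanyl male replicate 2 accounts for 16 of them. Its summed share of the 9 genes was 16.9% against 8.55% to 9.75% in the other 5 fentanyl males. All 13 mitochondrially encoded genes stood apart in it by level: COX1 at 52133 CPM, COX2 at 17776, COX3 at 23211, CYTB at 16691, ND1 at 15983, ND2 at 15994, ND4 at 16478, ND5 at 6690, ATP6 at 22946, ATP8 at 1284, ND3 at 2774, ND4L at 1186 and ND6 at 2894 CPM. Its shares of mitochondrial counts stood apart for ATP6 (11.7% against 9.92% to 10.3%) and ND3 (1.42% against 1.21% to 1.28%).

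Saline male replicate 5 accounts for the other 4, all shares of mitochondrial counts. Against the other 5 saline males, COX1 stood at 28.7% (25.9% to 26.9%), COX3 at 8.15% (10.9% to 12.4%), ND2 at 5.85% (6.93% to 7.43%) and ATP6 at 10.9% (10.5% to 10.7%).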

How the results depend on the processing

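Calls among the 9 genes stayed at 0 in all 6 comparisons under every alternative that was run. The lowest adjusted p was 0.1055, by limma voom between the number sets. Nearly as low was 0.1064, by limma voom between the exposures over both sexes without fentanyl male replicate 2. Fold changes near 0 changed sign often over both sexes. With library totals these were COX2 (-0.0309), CYTB (-0.0264) and ND1 (-0.0266). With limma voom they were COX1 (-0.0492), COX2 (-0.171), COX3 (-0.0351), CYTB (-0.159), ND1 (-0.165) and ATP6 (-0.157). Without fentanyl male replicate 2, DESeq2 gave -0.0511 for COX1, -0.161 for COX2, -0.0489 for COX3, -0.132 for CYTB, -0.163 for ND1 and -0.156 for ATP6, and limma voom gave -0.0571, -0.181, -0.0473, -0.167, -0.176 and -0.170 in the same order. Without saline males 1 and 2 they were ND4 (0.0289), ATP8 (0.00709) and ND6 (0.0174), and without saline males 9 to 12 they were COX2 (-0.0376), ND1 (-0.0797) and ATP6 (-0.00646). The cause was not tested. With 1 library left out, values ran from -0.0398 to 0.157 for COX1, -0.150 to 0.083 for COX2, -0.0390 to 0.206 for COX3, -0.121 to 0.0764 for CYTB, -0.152 to 0.0768 for ND1, -0.194 to 0.0142 for ND4, -0.266 to 0.0194 for ND6 and -0.146 to 0.140 for ATP6. The lowest of each came without fentanyl male replicate 2. The summed share difference ran from -0.825 to 0.408 percentage points.

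Among shares of mitochondrial counts, females alone reversed CYTB (0.0371), ATP6 (0.00656), ATP8 (0.0107) and ND6 (0.00857), and the ratio to CYTB reversed ATP6 (0.0161). In the edgeR fit scaled to the mitochondrial total, none of COX2, ND2, ND3, ND4, ND5, ND4L and ND6 passed, though each has an unadjusted exact permutation p under 0.05; ND2 and ND3 kept such a p as ratios to ATP6 or CYTB and with any 1 library left out. COX2, ND4L and ND6 lost it without some libraries (ND6 up to 0.0696).

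With the replicate number as a block (replicate block), 0 of 9 genes were called, the median was 1.6e-04, and COX2 (-0.0136) and ND1 (-0.0108) turned below 0; calls over all genes went from 14 to 2. Samples with the same replicate number correlated above 0.1 in 2 of 8 pairs, where the 2 female pairs have the same r (-0.2117). Such correlations cannot show whether these samples share a litter or a batch. Crossing the female numbers also gave 0 of 9 calls. Depth limits little here; the spread between 8 animals a group does.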
